A study of Mus musculus with 26 samples.

Results

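The data described here are the RNA-seq libraries of mouse pre-B cell cultures that lacked interleukin 7 (IL-7), received the chemokine CXCL12, and differed in the CXCL12 receptor CXCR4. They comprise 4 of the 18 RNA libraries of the series, chosen by their labels: 2 of cultures labelled CXCR4-/- small pre-B (below, the deficient cultures) and 2 of cultures of pre-B cells whose labels name no change in Cxcr4 (the sufficient cultures). As a further comparison that shares no library with this one, the same genotypes were compared without IL-7 and without CXCL12, with 2 deficient and 2 sufficient libraries. The series as a whole addresses how CXCR4 signalling relates to recombination of the immunoglobulin kappa locus Igk and to late B cell development, and this comparison asks which transcripts differ when CXCL12 is present but its receptor is disrupted. The allele, any Cre driver, the age of the mice, the length of culture and the deleted part of Cxcr4 are not given in the sources used here. No label says whether replicates came from separate animals or cultures. The p-values below thus measure only how far libraries scatter within their groups, over all 18 RNA libraries unless stated. That scatter may be technical. For the second sufficient library with CXCL12, the title says pre-B cells and the count table small pre-B cells. The second sufficient library without CXCL12 is called small pre-B in both, and the first of each sufficient pair pre-B. All deficient libraries are called small pre-B, so the cell label runs in part with genotype. Its part in the differences was not tested.

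IL-7 keeps large pre-B cells dividing through its receptor, the kinase JAK and the factor STAT5, which sustains genes such as Cish, Socs2, Ccnd2 and Myc. When IL-7 is withdrawn, pre-B cells leave the cycle, become small and open the light chain loci to the recombinase made of RAG1 and RAG2. CXCR4 is a G-protein-coupled receptor that signals through Gi proteins, kinases and the ERK pathway, whose early targets include Egr1, Fos and Dusp6.

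Total counts were 22090638 and 19876401 in the deficient cultures with CXCL12 and 43297149 and 17257914 in the sufficient ones. Without CXCL12 they were 28902098 and 19550744 in deficient cultures and 44172189 and 38877140 in sufficient ones. Levels are given for replicates 1 and 2 as CPM, the counts scaled by each library's total after TMM normalization. They are not corrected for gene length and are compared between cultures only. The sufficient replicates differed by little more than counting noise (chi-square per degree of freedom 1.34 with and 1.48 without CXCL12), the deficient ones by more (10.8 and 264.6). The last value reflects replicate 1 of the deficient cultures without CXCL12, which stood apart. Deficient and sufficient cultures formed separate sets of libraries, so genotype and culture set cannot be told apart in any result below. Log2 changes are deficient over sufficient, ± SE. Their p-values come from edgeR's quasi-likelihood test and are Benjamini-Hochberg adjusted over 14862 genes, and a gene that rose or fell is one called at an adjusted p under 0.05.

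Cxcr4 had 137 and 133 CPM in deficient cultures, against 237 and 226 CPM in sufficient ones, so it was lower in both deficient libraries but not absent. Its change did not pass the test in the fit of all 18 libraries (log2 change -0.78 ± 0.65, adjusted p = 0.31). With the 4 compared libraries fitted alone it did (-0.74, adjusted p = 4e-06). In that fit of all libraries the spread includes the sorted cells labelled CXCR4-deficient, where Cxcr4 was at 37.2 and 409 CPM. Since reads of an undeleted part would be counted, the level checks the labels only in part.

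Most of the genes tested differed between these cultures. Of 14862 genes 9366 were called (63.0%), 4057 higher (27.3%) and 5309 lower (35.7%) in deficient cultures, and 5689 (38.3%) were called with a change of at least 2-fold. The median change of all genes was -0.14. Each gene list below is therefore read against these shares. B-lineage identity was present in both groups: 10 genes such as Cd79a, Cd79b and Ebf1 summed to 8296 and 7644 CPM in deficient cultures, against 9426 and 9271 CPM in sufficient ones. Of these 10 genes 2 rose and 5 fell (median change -0.55).

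**Figure D1:**
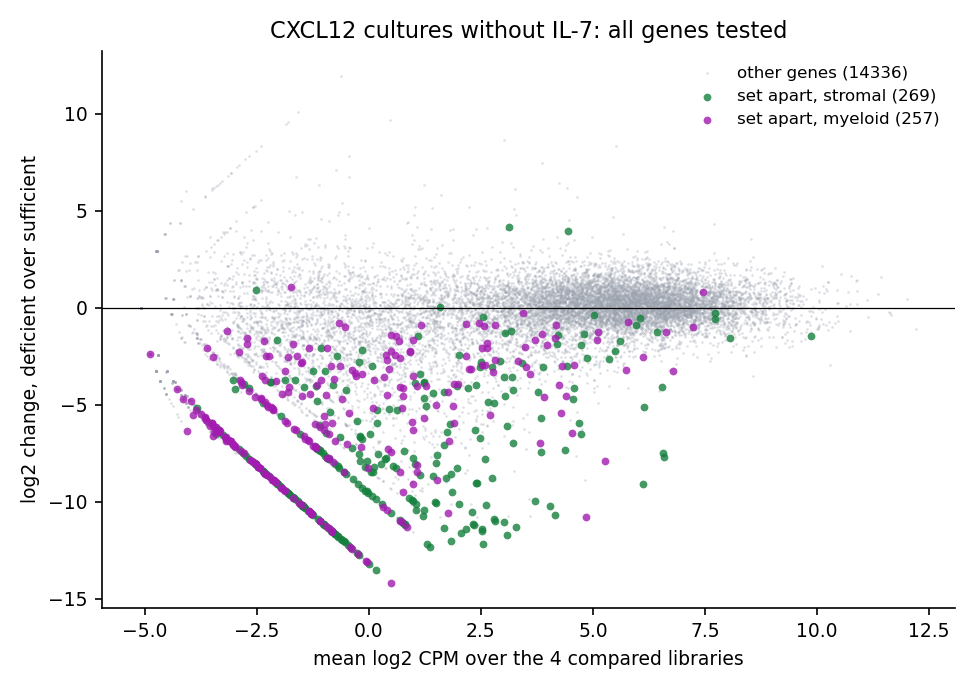
Each point is 1 of 14862 genes, with its mean log2 CPM over the 4 CXCL12 libraries on the horizontal axis and its log2 change, deficient over sufficient, on the vertical axis. Of the 269 stromal and 257 myeloid genes set apart (coloured), 263 and 227 fell in deficient cultures, many of them by far more than the bulk of genes.

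Genes of stromal and myeloid cells were set apart first. The set held 269 stromal genes, 74 of them listed markers and 195 that followed the summed stromal markers at a Pearson r of at least 0.9 over the 14 other libraries. It held 257 myeloid genes, 82 listed and 175 following. The stromal genes together gave 1690.3 and 1663 CPM in deficient cultures, against 20499 and 20168 CPM in sufficient ones, and the myeloid genes 747 and 754 CPM in deficient cultures, against 6031 and 5939 CPM in sufficient ones. As shares of all counts, the stromal genes held 0.169% and 0.167% in deficient cultures against 2.13% and 2.12% in sufficient ones. Without CXCL12 the stromal sum was 2193 and 1636 CPM in deficient cultures, against 9586 and 9494 CPM in sufficient ones. The myeloid sum there was 829.9 and 772 CPM in deficient cultures, against 2873 and 2818 CPM in sufficient ones. The following genes were picked over libraries that include these, so their part of this difference may be built in. The listed stromal markers alone gave 1769 and 1179 CPM in deficient cultures without CXCL12, against 7192 and 7109 CPM in sufficient ones. The listed myeloid markers gave 519 and 428 CPM, against 1940 and 1907 CPM.

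Of the 269 stromal genes 263 fell, 4 did not pass and 2 rose (Nov and Thy1). The largest changes were in matrix and contractile genes. Col1a1 and Col1a2, the chains of type I collagen, had 0.0903 and 0.301 CPM in deficient cultures, against 486 and 482 CPM in sufficient ones for Col1a1, and 0.361 and 0.502 CPM in deficient cultures, against 710.0 and 695 CPM in sufficient ones for Col1a2. The smooth muscle actin Acta2 had 0.226 and 0.1 CPM in deficient cultures, against 362 and 353 CPM in sufficient ones. The matrix proteoglycan Bgn and the matrix protein Sparc had similar levels, 0.271 and 0.702 CPM in deficient cultures, against 589 and 562 CPM in sufficient ones for Bgn, and 0.271 and 0.552 CPM in deficient cultures, against 412 and 415 CPM in sufficient ones for Sparc. Deficient levels this close to 0 rest on a few reads, so their fitted folds are not given. Of 11 defining stromal markers tested 10 fell, and their sum was 1.45 and 2.11 CPM in deficient cultures, against 2065 and 2041 CPM in sufficient ones. The marker that did not pass, Dcn, averaged 0.118 ± 0.0249 CPM in deficient and 0.376 ± 0.0645 CPM in sufficient cultures (SD, n = 2 each).

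Of the 257 myeloid genes 227 fell, 29 did not pass and Csf2rb alone rose (log2 change 0.81 ± 0.21, adjusted p = 0.0045). Csf2rb, a listed marker, did not follow the myeloid sum over the other libraries (r = -0.22). It had 230 and 236 CPM in deficient cultures, against 134 and 132 CPM in sufficient ones. Gpnmb, a glycoprotein of macrophages, had 0.723 and 0.602 CPM in deficient cultures, against 1213 and 1181 CPM in sufficient ones. It is in the myeloid set as a listed marker. Over the other libraries it followed the stromal markers (r = 0.67) more than the myeloid ones (r = 0.23), so its cell source is uncertain. Lysozyme (Lyz2) had 2.71 and 2.26 CPM in deficient cultures, against 216 and 217 CPM in sufficient ones, and the macrophage genes Mpeg1 1.36 and 1.1 CPM in deficient cultures, against 161 and 154 CPM in sufficient ones, and Cd68 3.97 and 2.21 CPM in deficient cultures, against 77.9 and 74.7 CPM in sufficient ones. Lgals3, encoding the lectin galectin-3, had 2.66 and 2.31 CPM in deficient cultures, against 593 and 583 CPM in sufficient ones, and Sirpa, an inhibitory receptor of phagocytes, 2.71 and 3.21 CPM in deficient cultures, against 129.9 and 128 CPM in sufficient ones. Lgals3, also a listed marker, followed the stromal markers at r = 0.58 and the myeloid ones at 0.52. All 12 defining myeloid markers fell. Elane, S100a8, Camp and Cd14 among them had no read in either deficient library, and the summed defining markers were 11.6 and 12.7 CPM in deficient cultures, against 722 and 725 CPM in sufficient ones. In such bulk libraries fewer cells of a type and less RNA per cell cannot be told apart. Among the 14336 genes not set apart, 4054 rose and 4819 fell (61.9% called). The stromal and myeloid sums were lower in deficient cultures wherever a list below fell, and their part in those falls was not tested.

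**Figure D2:**
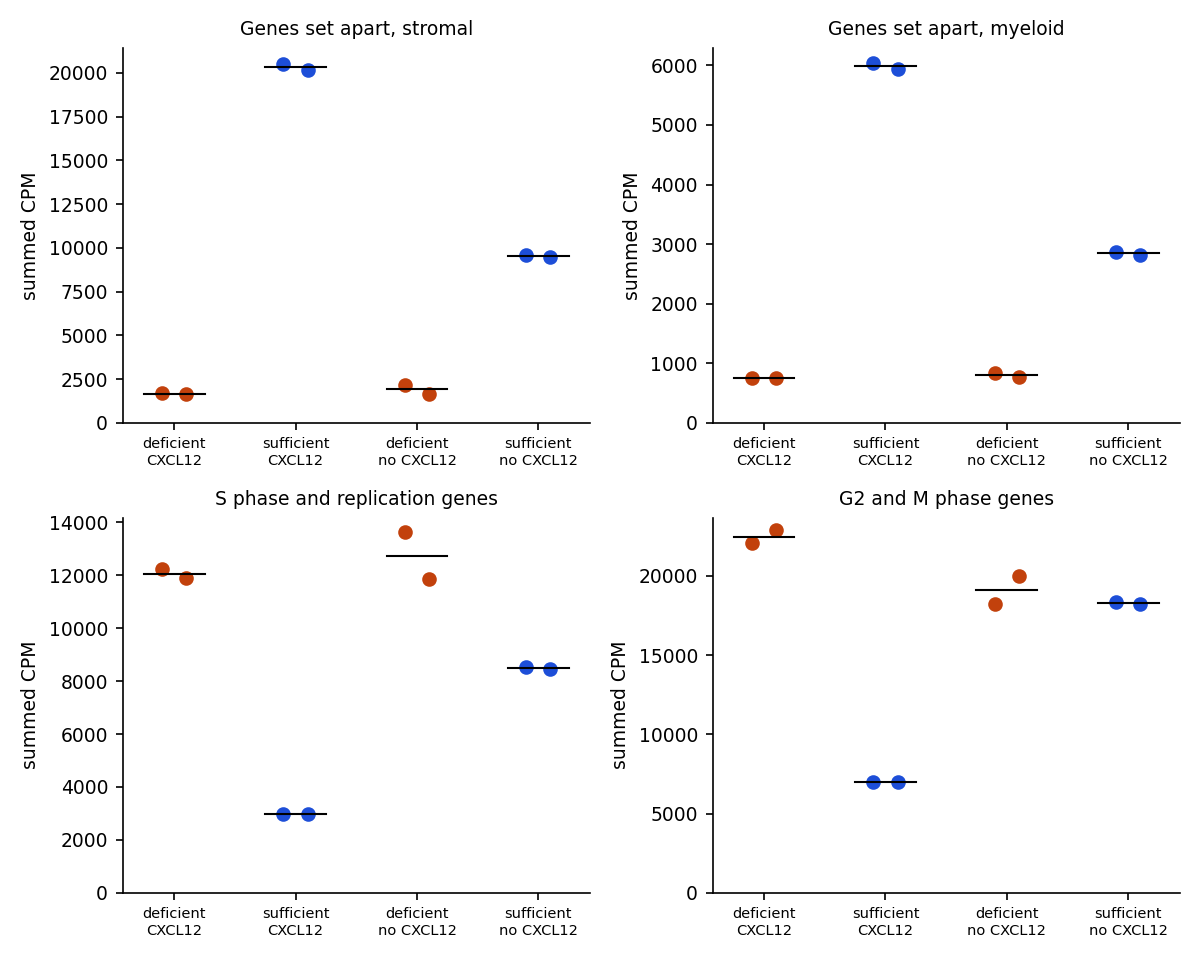
Summed CPM in each library of the 4 cultures without IL-7, for the stromal and myeloid genes set apart and for the S phase and the G2 and M phase lists; points are the 2 replicates, lines their mean. Both stromal and myeloid sums are low in all deficient cultures and highest in sufficient cultures with CXCL12, where the cell cycle sums are lowest.

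Cell cycle transcripts were higher in deficient cultures with CXCL12. All 50 S phase and replication genes rose, with a median change of 2.09, and of 79 G2 and M phase genes 78 rose and none fell (median 1.78). The S phase genes summed to 12228 and 11879.8 CPM in deficient cultures, against 2993 and 2974 CPM in sufficient ones. The sum of the G2 and M phase genes was 22039 and 22873 CPM in deficient cultures, against 7001 and 6968 CPM in sufficient ones. In neither list did the deficient and sufficient libraries overlap.

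Mki67, the proliferation antigen, had 1765 and 2120.0 CPM in deficient cultures, against 779 and 774 CPM in sufficient ones (log2 change 1.32 ± 0.14, adjusted p = 5.3e-06). Among S phase genes Mcm6, a subunit of the replicative helicase, had 676 and 645 CPM in deficient cultures, against 133 and 132 CPM in sufficient ones (log2 change 2.32 ± 0.07, adjusted p = 5.3e-10). Ccne2, the cyclin of S phase entry, had 155 and 158 CPM in deficient cultures, against 19 and 19 CPM in sufficient ones (log2 change 3.04 ± 0.10, adjusted p = 5.3e-10), and the repair exonuclease Exo1 changed by 2.75 ± 0.08. Of the mitotic genes, the condensin subunit Ncapg had 275 and 272 CPM in deficient cultures, against 58.9 and 55.7 CPM in sufficient ones (log2 change 2.25 ± 0.08, adjusted p = 1.2e-09). The mitotic kinases Pbk and Aurkb changed by 2.28 ± 0.08 and 2.06 ± 0.08.

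Promoters of these lists are shown because their members moved together. RefSeq windows (GRCm38.p6, 250 bases before to 50 after a start) were matched by symbol for 10659 of the genes tested. Any of 4 E2F motifs (TTTGGCGC, TTTCCCGC, TTTCGCGC, TTTGCCGC, both strands) stood in 16 of 40 S phase windows (40.0%), against 4.41% of all genes. The motif TTTGAA, the cell cycle homology region (CHR) of mitotic promoters, stood in 46 of 64 G2 and M phase genes (71.9%), against 14.3% of all. CCAAT, bound by NF-Y, stood in 47 of these 64 (73.4%), against 42.5% of all. A match is a description of these letters and not a binding site. The following stretches run from 200 bases before the start to 20 after it, for the members with the smallest p whose motif lay inside, with E2F or CHR matches in capitals. In Mcm6 the first capitals hold overlapping matches on opposite strands.
Mcm6 (chr1:128359686-128359905, minus strand): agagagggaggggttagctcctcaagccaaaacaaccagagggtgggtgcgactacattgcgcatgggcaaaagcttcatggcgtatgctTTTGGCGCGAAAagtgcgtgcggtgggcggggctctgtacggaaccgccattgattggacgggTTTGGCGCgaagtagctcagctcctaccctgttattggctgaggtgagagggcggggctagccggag
Uhrf1 (chr17:56304113-56304332, plus strand): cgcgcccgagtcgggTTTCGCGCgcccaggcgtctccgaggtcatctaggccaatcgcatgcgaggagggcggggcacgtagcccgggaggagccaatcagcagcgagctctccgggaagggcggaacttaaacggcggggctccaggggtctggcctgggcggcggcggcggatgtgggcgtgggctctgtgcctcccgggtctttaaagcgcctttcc
Ncapg (chr5:45669725-45669944, plus strand): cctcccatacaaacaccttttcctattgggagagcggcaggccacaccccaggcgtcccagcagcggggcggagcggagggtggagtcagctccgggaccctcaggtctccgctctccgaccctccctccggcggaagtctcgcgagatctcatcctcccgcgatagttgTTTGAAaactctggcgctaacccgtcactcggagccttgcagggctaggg
Ttk (chr9:83834489-83834708, plus strand): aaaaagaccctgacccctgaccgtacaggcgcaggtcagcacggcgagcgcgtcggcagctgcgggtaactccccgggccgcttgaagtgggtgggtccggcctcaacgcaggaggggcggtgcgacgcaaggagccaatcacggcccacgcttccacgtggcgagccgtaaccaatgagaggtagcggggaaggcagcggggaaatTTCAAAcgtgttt

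Cyclins and their inhibitors changed in both directions: of 28 genes 16 rose and 8 fell. The D-type cyclin Ccnd3, needed by dividing pre-B cells, had 1235 and 1107 CPM in deficient cultures, against 326 and 321 CPM in sufficient ones (log2 change 1.86 ± 0.13, adjusted p = 1.1e-07). Ccnd2 had 389 and 429.8 CPM in deficient cultures, against 112 and 103 CPM in sufficient ones (log2 change 1.93 ± 0.18, adjusted p = 1.6e-06). Ccnd1 went the other way, with 0.0452 and 0.15 CPM in deficient cultures, against 113 and 106 CPM in sufficient ones (adjusted p = 5e-08). It rested on 1 and 3 reads in the deficient libraries, so no fold is given. Cdk2, the partner of cyclin E, and the inhibitor Cdkn2c rose by 1.44 ± 0.08 and 1.58 ± 0.08. Btg1, an antiproliferative gene that the FOXO list also holds, had 82.7 and 79.7 CPM in deficient cultures, against 477 and 499 CPM in sufficient ones (log2 change -2.59 ± 0.11, adjusted p = 2.7e-09). Btg1 followed the myeloid markers at r = 0.76 over the other libraries. Replication-dependent histone genes, poorly captured in polyadenylated RNA, gave 18 higher and 3 lower of 47, and 3 to 26 higher when single libraries were left out. Their sum went the other way, at 73.5 and 65.3 CPM in deficient cultures, against 169.8 and 184 CPM in sufficient ones.

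The cell cycle difference between genotypes was larger with CXCL12 than without it. Without CXCL12, 9743 genes were called by genotype (65.6%), 4601 higher (31.0%) and 5142 lower (34.6%). There 43 S phase genes rose and 3 fell (median 0.73), and 37 G2 and M phase genes rose and 9 fell (median 0.19). The difference between the genotype changes was called for 3750 genes (25.2%), 1800 positive (12.1%) and 1950 negative (13.1%). It was positive for 43 of 50 S phase and 75 of 79 G2 and M phase genes and negative for none. Without CXCL12 the S phase sum was 13645 and 11842 CPM in deficient cultures, against 8518 and 8454 CPM in sufficient ones, and the G2 and M phase sum 18230.3 and 19962 CPM in deficient cultures, against 18354 and 18232 CPM in sufficient ones. The sufficient cultures thus had lower sums with CXCL12 than without it. Mki67 turned its direction, with 1021 and 1403 CPM in deficient cultures, against 2019 and 1995 CPM in sufficient ones when CXCL12 was absent (log2 change -0.73 ± 0.14, adjusted p = 0.00073), and the difference was 2.05 ± 0.20 (adjusted p = 2.3e-05). With only the compared libraries without CXCL12 fitted, edgeR's test did not call the Mki67 fall (log2 change -0.72, adjusted p = 0.092). Without deficient replicate 1 of the cultures lacking CXCL12, the differences were positive for 50 of 50 and 79 of 79 members. Without deficient replicate 2 they were positive for 46 and negative for 1 of the S phase genes, and positive for 77 and negative for 2 of the G2 and M phase genes.

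Genes of the IL-7 and STAT5 response split. Of 23 genes 12 rose and 6 fell, though no culture held IL-7 by its label. Cish, a feedback inhibitor of STAT5 signalling, had 106 and 105 CPM in deficient cultures, against 4.79 and 4.29 CPM in sufficient ones (log2 change 4.53 ± 0.12, adjusted p = 1.9e-10), and the groups did not overlap. Tnfsf11, the cytokine RANKL, had 28.2 and 27 CPM in deficient cultures, against 0.71 and 0.825 CPM in sufficient ones (log2 change 5.19 ± 0.19, adjusted p = 1.2e-09), and Myc 201 and 187 CPM in deficient cultures, against 27.7 and 25.2 CPM in sufficient ones (log2 change 2.87 ± 0.08, adjusted p = 3.9e-10). Receptor genes fell. Il7r, the IL-7 receptor chain, had 144 and 156 CPM in deficient cultures, against 303 and 302 CPM in sufficient ones (log2 change -1.01 ± 0.11, adjusted p = 7.7e-06). Il2ra, which encodes CD25, had 30.9 and 33.9 CPM in deficient cultures, against 95 and 93.2 CPM in sufficient ones (log2 change -1.54 ± 0.10, adjusted p = 7.5e-08). Without CXCL12 Cish had 123 and 129 CPM in deficient cultures, against 30 and 28.9 CPM in sufficient ones (log2 change 2.10 ± 0.10, adjusted p = 4.7e-08), while Il2ra did not pass (-0.04 ± 0.10). The difference of the changes was 2.43 ± 0.14 for Cish and -1.50 ± 0.14 for Il2ra, both called.

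The Cish window carried the STAT motif TTCNNNGAA as 2 matches, the first beginning at the start itself and the second 11 bases on, with matches in capitals.
Cish (chr9:107296459-107296678, plus strand): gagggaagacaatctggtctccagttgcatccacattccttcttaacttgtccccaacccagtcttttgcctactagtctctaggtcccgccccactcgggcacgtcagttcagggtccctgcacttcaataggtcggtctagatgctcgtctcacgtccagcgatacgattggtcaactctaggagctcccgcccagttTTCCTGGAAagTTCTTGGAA
Such a motif stood in 4 of 18 windows of the STAT5 list (22.2%), against 8.47% of all genes, searched on both strands. It was not particular to that list, as 5 of 19 windows of the NF-kB list held it too (26.3%).

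MYC targets and ribosome biogenesis were higher: 54 of 59 genes rose and 2 fell (median 1.24). The nucleolar GTPase Gnl3 had 212 and 212 CPM in deficient cultures, against 61.4 and 61.4 CPM in sufficient ones (log2 change 1.79 ± 0.07, adjusted p = 1.2e-09), and the mitochondrial chaperone Hspd1 335 and 347 CPM in deficient cultures, against 81 and 83.2 CPM in sufficient ones (log2 change 2.06 ± 0.08, adjusted p = 1.2e-09). The 2 that fell, named because they were so few, were Mxd4 (-1.12 ± 0.11) and Mnt (-1.42 ± 0.16), which encode antagonists of MYC. Without CXCL12 49 rose and 4 fell (median 1.03), and the difference was positive for 17 and negative for 2 members.

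One-carbon and amino acid genes of the ATF4 list followed, with 28 higher and 5 lower of 42. Mthfd1, a folate enzyme, had 221 and 227 CPM in deficient cultures, against 43.9 and 41.8 CPM in sufficient ones (log2 change 2.39 ± 0.08, adjusted p = 5.4e-10). The serine hydroxymethyltransferases Shmt1 and Shmt2 rose by 2.89 ± 0.11 and 1.92 ± 0.09. Gldc, the glycine decarboxylase, had 819 and 799 CPM in deficient cultures, against 2.15 and 3.08 CPM in sufficient ones (log2 change 8.32 ± 0.41, adjusted p = 2.1e-08), and without CXCL12 435 and 727 CPM in deficient cultures, against 135 and 133 CPM in sufficient ones. The genotype change of Gldc was larger with CXCL12 by 6.21 ± 0.46.

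Secretory and lipid genes moved in part. In the unfolded protein response list 19 of 29 rose and 5 fell: the factor Xbp1 had 351 and 329.9 CPM in deficient cultures, against 90.9 and 86.5 CPM in sufficient ones (log2 change 1.94 ± 0.08, adjusted p = 2.4e-09), the chaperone Canx rose by 1.27 ± 0.08, and Herpud1, of protein degradation at the endoplasmic reticulum, changed by -1.53 ± 0.08. In the cholesterol list 16 of 31 rose and 4 fell with CXCL12, but 9 rose and 14 fell without it. The exporter Abcg1 rose by 1.04 ± 0.10 and the exporter Abca1 had 0.316 and 0.652 CPM in deficient cultures, against 21.2 and 20.1 CPM in sufficient ones (log2 change -5.43 ± 0.36, adjusted p = 9.1e-08). Abca1 followed the myeloid markers over the other libraries at r = 0.80.

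Energy and translation genes were higher, in numbers that varied with the libraries fitted. Of 74 respiratory chain genes 39 rose and 1 fell, of 76 mitochondrial ribosomal protein genes 52 rose, of 78 cytosolic ones 36 rose, and none of the ribosomal genes fell. Without CXCL12 the counts were 72, 75 and 77 higher. The deficient replicates there lay far apart, with replicate 1 the higher. Their respiratory sums were 31385 and 13569 CPM, against 8260 and 8315 CPM in sufficient cultures. The mitochondrial ribosomal sums were 10335 and 4549 CPM in deficient cultures, against 2544 and 2559 CPM in sufficient ones. The cytosolic sums were 70887 and 24454 CPM in deficient cultures, against 15079 and 15253 CPM in sufficient ones. When single libraries with CXCL12 were left out, 19 to 33 respiratory, 33 to 46 mitochondrial ribosomal and 18 to 32 cytosolic ribosomal genes rose. With 8 libraries fitted these counts were 17, 27 and 14. With the 4 compared libraries alone 69 respiratory and 62 cytosolic ribosomal genes rose, and 2 cytosolic ones fell. Ribosomal protein genes share reads with pseudogenes and are uncertain. Glycolysis genes gave 12 higher and 6 lower of 25.

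**Figure D3:**
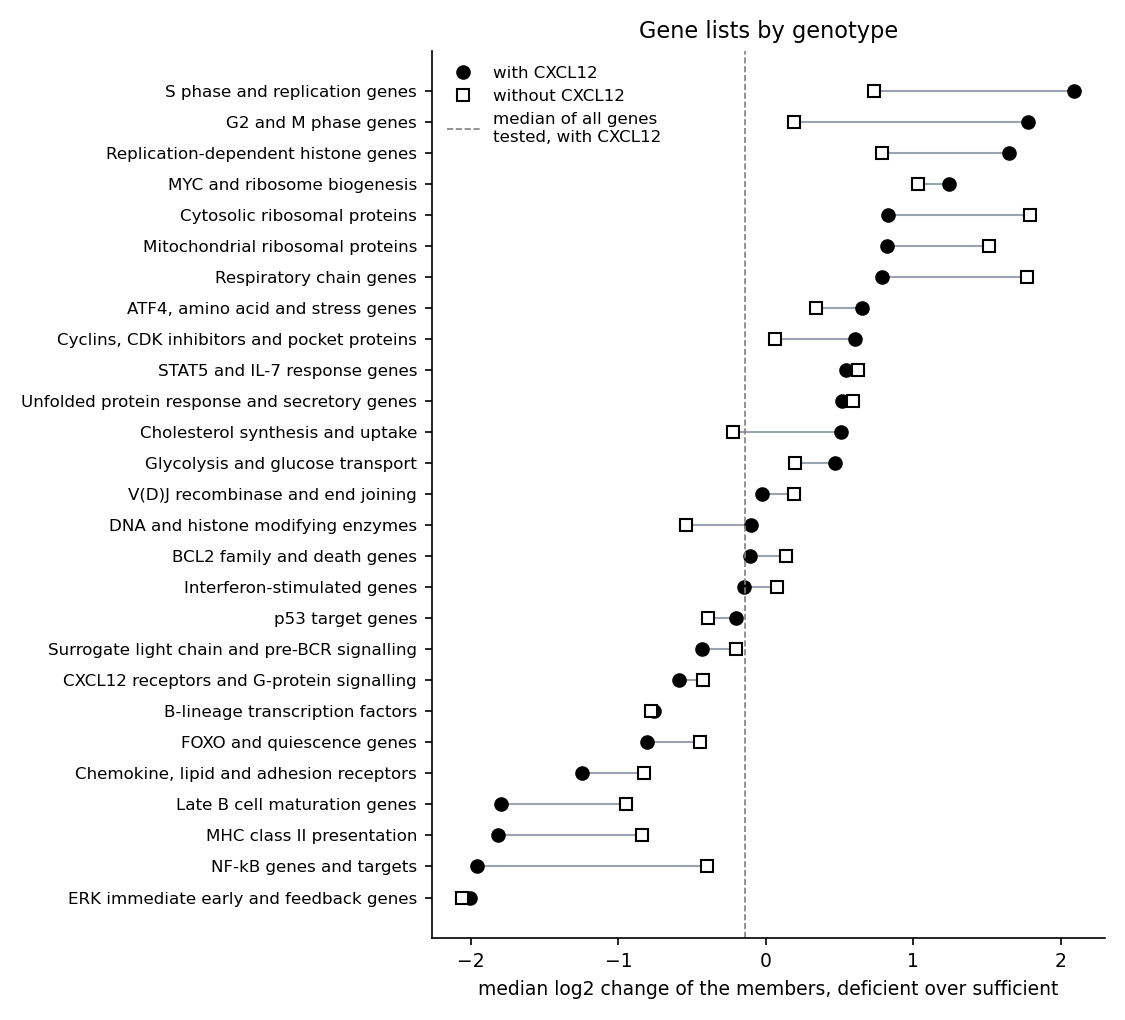
Median log2 change, deficient over sufficient, of the tested members of each biology list, with CXCL12 (filled circles) and without it (open squares); the dashed line marks the median of all genes with CXCL12. The S phase and the G2 and M phase lists lie farthest right with CXCL12, the ERK and NF-kB lists farthest left, and the NF-kB list has its circle at -1.96 and its square at -0.40.

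Targets of ERK signalling were lower in deficient cultures. Of 34 immediate early and feedback genes 26 fell and Myc alone rose (median -2.01); 2 of the list were set apart as stromal or myeloid, and of the other 32 genes 24 fell. Egr1, a zinc finger factor induced within minutes of ERK activation, had 5.15 and 4.96 CPM in deficient cultures, against 88.1 and 86.5 CPM in sufficient ones (log2 change -4.11 ± 0.51, adjusted p = 2e-05). Dusp6, the phosphatase that turns ERK off, had 5.06 and 3.96 CPM in deficient cultures, against 112 and 109.8 CPM in sufficient ones (log2 change -4.62 ± 0.19, adjusted p = 2.9e-09). Fosb and Fos, subunits of AP-1, had 0.587 and 0.401 CPM in deficient cultures, against 172 and 173 CPM in sufficient ones for Fosb, and 1.72 and 1.71 CPM in deficient cultures, against 79.9 and 75.6 CPM in sufficient ones for Fos (log2 changes -8.43 ± 0.82 and -5.50 ± 0.45). Ier3, an early response gene, had 0.316 and 0.201 CPM in deficient cultures, against 9.96 and 11.2 CPM in sufficient ones. Its fitted change of -5.32 ± 0.32 thus rests on a few reads in deficient cultures. Over the other libraries Ier3 followed the myeloid markers at r = 0.73. Without CXCL12 23 fell and 6 rose (median -2.06), and the difference was negative for 13 members and positive for 1. For Egr1 the difference did not pass (log2 change -1.26 ± 0.67, adjusted p = 0.18), though it did with the 14 culture libraries alone (-1.16, adjusted p = 0.0038).

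NF-kB genes were lower mainly with CXCL12 present. Of 25 genes 16 fell and 3 rose (median -1.96), against 12 lower and 7 higher without CXCL12 (median -0.40). The difference of the changes was negative for 16 of the 25 members and positive for 2. Cd83, an activation marker of B cells, had 0.542 and 0.602 CPM in deficient cultures, against 27.5 and 26.9 CPM in sufficient ones (log2 change -5.56 ± 0.18, adjusted p = 5.3e-10). The subunit Relb had 13.2 and 11.4 CPM in deficient cultures, against 91.5 and 89.9 CPM in sufficient ones (log2 change -2.88 ± 0.15, adjusted p = 1.3e-08), and without CXCL12 24.1 and 17.8 CPM in deficient cultures, against 26.8 and 24.7 CPM in sufficient ones, which did not pass. The survival gene Birc3 and the inhibitor Nfkbie changed by -2.09 ± 0.09 and -1.86 ± 0.09. The 3 that rose, named because they were so few, were the cytokine genes Lta (81.2 and 76 CPM in deficient cultures, against 1.06 and 1.21 CPM in sufficient ones) and Tnf (4.06 ± 0.25) and the kinase gene Ikbke (0.84 ± 0.16). Of this list 0 members were among the genes set apart at an r of 0.9. Cd83 still followed the myeloid markers at r = 0.73 over the other libraries. Birc3, Relb and Nfkbie followed them at 0.39, 0.24 and 0.17.

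Windows of the NF-kB list held one of 4 kappa B consensus motifs (searched on both strands) in 3 of 19 genes (15.8%), against 0.704% of all genes. A subunit gene and an inhibitor gene among these are shown, with the match in capitals. Nfkb2 changed by -2.12 ± 0.11 and Nfkbia by -2.24 ± 0.13.
Nfkb2 (chr19:46304537-46304756, plus strand): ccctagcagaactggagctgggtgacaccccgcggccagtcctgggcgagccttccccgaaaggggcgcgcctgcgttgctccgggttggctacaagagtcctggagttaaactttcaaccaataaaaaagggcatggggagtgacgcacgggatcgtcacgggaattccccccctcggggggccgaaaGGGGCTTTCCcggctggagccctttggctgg
Nfkbia (chr12:55492628-55492847, minus strand): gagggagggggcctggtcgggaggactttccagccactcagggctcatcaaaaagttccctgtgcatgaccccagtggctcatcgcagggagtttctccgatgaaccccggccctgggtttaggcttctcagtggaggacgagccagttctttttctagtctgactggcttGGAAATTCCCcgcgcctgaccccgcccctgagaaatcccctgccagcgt

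FOXO and quiescence genes were lower, 24 of 33 falling and 5 rising (median -0.81). Foxo1, the factor that drives Rag transcription and is held down by growth factor signalling, had 284 and 304 CPM in deficient cultures, against 501 and 497 CPM in sufficient ones (log2 change -0.76 ± 0.09, adjusted p = 1.2e-05). Trib2, a pseudokinase, had 14.5 and 14.5 CPM in deficient cultures, against 138 and 136 CPM in sufficient ones (log2 change -3.24 ± 0.10, adjusted p = 3.9e-10), and S1pr1, the receptor that guides egress from tissues, 39.5 and 38.1 CPM in deficient cultures, against 207 and 207 CPM in sufficient ones (log2 change -2.42 ± 0.13, adjusted p = 1.9e-08). Of 26 BCL2 family and death genes 7 rose and 9 fell, near the shares of all genes, and of 27 p53 targets 5 rose and 11 fell.

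Regulators of light chain recombination were lower in part. Rag1 had 161 and 198 CPM in deficient cultures, against 434 and 429 CPM in sufficient ones (log2 change -1.26 ± 0.25, adjusted p = 0.00079), and Rag2 35.7 and 37.8 CPM in deficient cultures, against 53.5 and 51.5 CPM in sufficient ones (log2 change -0.52 ± 0.08, adjusted p = 9.5e-05). Of the whole recombination and end joining list of 16 genes 5 rose and 6 fell. Polm, the DNA polymerase that fills ends during light chain joining, had 7.27 and 5.47 CPM in deficient cultures, against 193 and 188 CPM in sufficient ones (log2 change -4.90 ± 0.15, adjusted p = 4.7e-10), the largest fall in the list among those named. Its genotype change was -3.07 ± 0.14 without CXCL12. The end-binding Ku subunit Xrcc5 and the DNA-bending cofactor Hmgb1 rose by 1.79 ± 0.12 and 1.54 ± 0.10. The difference between genotype changes was called for Rag2 (-0.57 ± 0.11) and Polm (-1.83 ± 0.19). The call of Rag2 ended with 8 libraries fitted (adjusted p = 0.082) and with the close sufficient pairs each summed to 1 library (adjusted p = 0.056). For Rag1 the difference did not pass (-0.17). It was called with either sign when a deficient library without CXCL12 was left out, at -0.51 (adjusted p = 0.013) without replicate 1 and 0.49 (adjusted p = 0.012) without replicate 2.

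Transcripts of the kappa variable segments, read from the Igk locus, were fewer in deficient cultures. Of 118 segments tested 104 fell and 1 rose (median -4.29, or -3.70 with segments at 0 in both deficient libraries set to a bound of 3 reads). They summed to 26.4 and 27.9 CPM in deficient cultures, against 286 and 297 CPM in sufficient ones, and without CXCL12 to 23.3 and 32.7 CPM in deficient cultures, against 86.7 and 87 CPM in sufficient ones. Of 123 heavy chain variable segments 78 fell and none rose. Segments share reads with near-identical copies, so single segments are uncertain, and these segment families were picked after their values were seen. The constant genes of IgM and IgD were lower too: Ighm changed by -1.08 ± 0.08 and Ighd had 55.4 and 60.5 CPM in deficient cultures, against 236 and 226 CPM in sufficient ones (log2 change -1.99 ± 0.09, adjusted p = 5.6e-09).

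Transcription factors of the B lineage were mostly lower: 24 of 41 fell and 6 rose (median -0.76). Without CXCL12 the list was lower too, with 27 falling and 4 rising (median -0.78). Brwd1, which binds acetylated histones and opens the kappa locus, had 7.95 and 7.67 CPM in deficient cultures, against 56.1 and 56.6 CPM in sufficient ones (log2 change -2.85 ± 0.11, adjusted p = 1.8e-09). Irf4, which limits proliferation and opens the kappa locus, had 244 and 261 CPM in deficient cultures, against 753 and 722 CPM in sufficient ones (log2 change -1.54 ± 0.10, adjusted p = 5e-08). Bcl6, a repressor induced when IL-7 is withdrawn, had 5.24 and 8.27 CPM in deficient cultures, against 37.9 and 40 CPM in sufficient ones (log2 change -2.53 ± 0.19, adjusted p = 2.2e-07). Spib had 817 and 802 CPM in deficient cultures, against 1839 and 1777 CPM in sufficient ones (log2 change -1.16 ± 0.08, adjusted p = 1.4e-07). The Ikaros family members Ikzf3 and Ikzf1 changed by -1.53 ± 0.29 and -0.84 ± 0.15, and Irf8 and Pax5 by -0.38 ± 0.08 and -0.91 ± 0.23. The call of Pax5 ended in the fit of 8 libraries (adjusted p = 0.062). Klf6 and Gfi1, zinc finger factors, changed by -2.04 ± 0.11 and -2.12 ± 0.12. Klf6 followed the myeloid markers at r = 0.72 over the other libraries, Gfi1 at 0.22. Id3, an inhibitor of E proteins, did not pass (log2 change 0.22 ± 0.24, adjusted p = 0.43) except with the 4 compared libraries alone (0.27, adjusted p = 0.03).

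**Figure D4:**
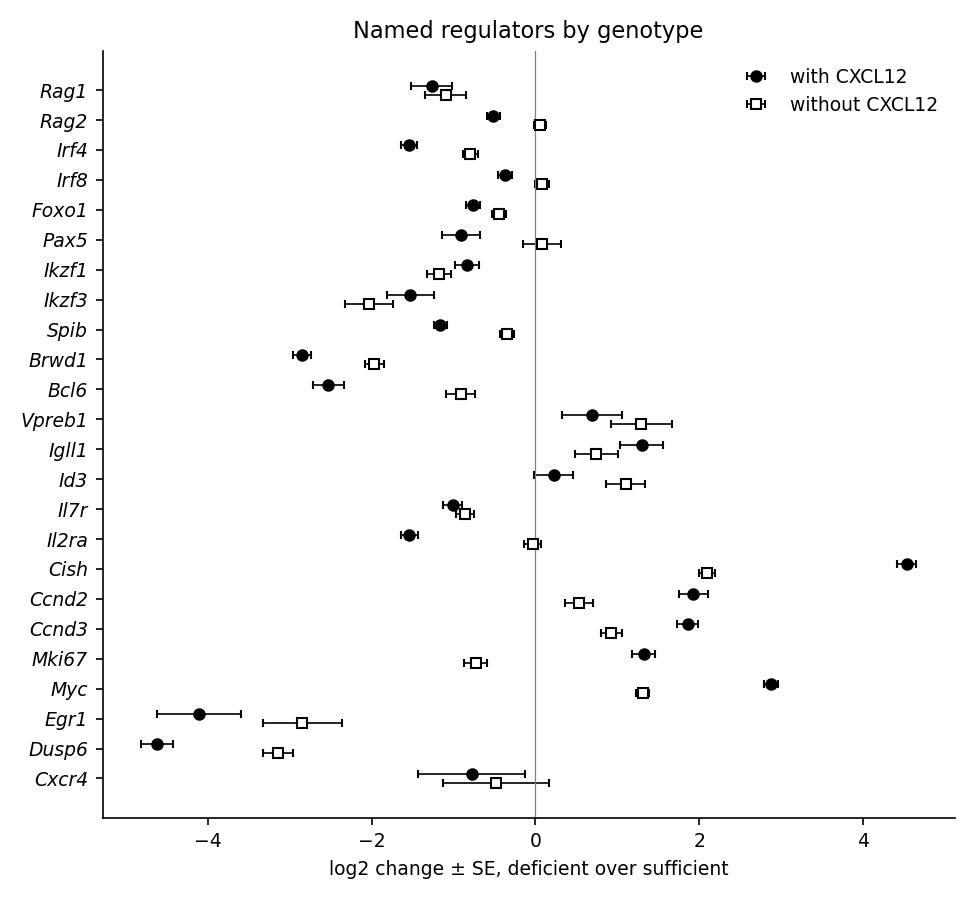
Log2 change ± SE, deficient over sufficient, of the regulators named by rule, with CXCL12 (filled circles) and without it (open squares), n = 2 libraries per group. Cish, Myc, Ccnd2 and Ccnd3 lie to the right and Egr1, Dusp6, Brwd1 and Bcl6 to the left with CXCL12; Ccnd1, near 0 CPM in deficient cultures, is left out.

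The surrogate light chain was partly higher. Igll1 had 897 and 771 CPM in deficient cultures, against 345 and 335 CPM in sufficient ones (log2 change 1.30 ± 0.27, adjusted p = 0.001), and Vpreb2 113 and 108 CPM in deficient cultures, against 8.96 and 8.8 CPM in sufficient ones (log2 change 3.64 ± 0.32, adjusted p = 9e-07). Vpreb1 had 556 and 522 CPM in deficient cultures, against 338 and 333 CPM in sufficient ones and did not pass (log2 change 0.69 ± 0.37, adjusted p = 0.12), though it did with the 4 compared libraries alone (0.73, adjusted p = 3.4e-06). In the list of surrogate light chain and pre-B cell receptor signalling 4 of 23 rose and 11 fell. Lyn, a kinase of the receptor, had 178 and 163 CPM in deficient cultures, against 370.0 and 371 CPM in sufficient ones (log2 change -1.12 ± 0.08, adjusted p = 1.1e-07), and Cd72, an inhibitory co-receptor, 171 and 158 CPM in deficient cultures, against 669 and 660.1 CPM in sufficient ones (log2 change -2.01 ± 0.17, adjusted p = 8.4e-07).

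Genes of later B cell maturation were lower: 29 of 34 fell and 2 rose (median -1.80). Fcrl1, a receptor of mature B cells, had 4.79 and 4.81 CPM in deficient cultures, against 51.8 and 51.6 CPM in sufficient ones (log2 change -3.43 ± 0.16, adjusted p = 6.7e-09). The 2 that rose, named because they were so few, were Cxcr5, the chemokine receptor of follicles (152 and 148 CPM in deficient cultures, against 26.1 and 28 CPM in sufficient ones), and Pou2af1 (0.25 ± 0.07). The call of Pou2af1 ended under upper quartile scaling (0.14, adjusted p = 0.089). Of 20 genes of class II antigen presentation 18 fell and Rfxap alone rose (0.77 ± 0.20), the median of the list being -1.82. H2-Ob had 143 and 142 CPM in deficient cultures, against 456 and 446 CPM in sufficient ones (log2 change -1.66 ± 0.10, adjusted p = 2.9e-08), the protease Ctss 70.1 and 65.1 CPM in deficient cultures, against 231 and 231 CPM in sufficient ones (log2 change -1.77 ± 0.11, adjusted p = 3.5e-08), and H2-Aa 17.4 and 17.8 CPM in deficient cultures, against 162 and 161 CPM in sufficient ones (log2 change -3.20 ± 0.13, adjusted p = 2.7e-09). H2-Aa is itself a gene set apart as myeloid, and without 2 such members 16 of 18 fell. With genes left out of the fit at a looser r of 0.8, 11 fell. That fit can hold fewer members of the list, so the 11 are not a share of 20 or 18. CCAAT stood in 12 of 13 class II windows (92.3%), against 42.5% of all genes. Markers of plasma cells gave 2 higher and 6 lower of 12, and those of pro-B cells 4 and 11 of 18.

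Receptors and G-protein signalling genes near CXCR4 itself gave 4 higher and 14 lower of 30 (median -0.59, or -0.38 with genes at 0 in deficient cultures set to a bound of 3 reads). Rgs1 and Rgs2, which end Gi and Gq signals, had 0.0903 and 0.0502 CPM in deficient cultures, against 37.9 and 38.6 CPM in sufficient ones for Rgs1, and 47.4 and 46.6 CPM in deficient cultures, against 180.2 and 179 CPM in sufficient ones for Rgs2 (Rgs2 log2 change -1.93 ± 0.18, adjusted p = 1.9e-06; Rgs1 adjusted p = 8.5e-09). Rgs1 rested on 2 and 1 reads in deficient cultures, and followed the stromal markers at r = 0.64 over the other libraries. Plcb2, a phospholipase activated by G proteins, had 28 and 27.3 CPM in deficient cultures, against 105 and 102 CPM in sufficient ones (log2 change -1.90 ± 0.12, adjusted p = 5.6e-08). Among other chemokine, lipid and adhesion receptors 5 of 41 rose and 28 fell, 17 of the 30 not set apart falling. The integrins Itgb3 and Itga5 changed by -2.47 ± 0.10 and -2.47 ± 0.15; Itgb3 followed the myeloid markers at r = 0.88 over the other libraries and Itga5 the stromal ones at 0.77.

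Interferon-stimulated genes changed in both directions, 20 of 61 rising and 20 falling. The guanylate-binding proteins Gbp7 and Gbp2 rose, Gbp7 having 376 and 445 CPM in deficient cultures, against 23.2 and 22.6 CPM in sufficient ones (log2 change 4.16 ± 0.18, adjusted p = 3.7e-09) and Gbp2 changing by 1.63 ± 0.11, while Gbp4 changed by -1.31 ± 0.09. Gbp4 followed the myeloid markers at r = 0.70 over the other libraries. DNA and histone modifying enzymes gave 21 higher and 20 lower of 57. The list of heat shock and RNA quality genes gave 6 and 5 of 13, with sums of 9427 and 9745 CPM in deficient cultures, against 10201 and 10115 CPM in sufficient ones.

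The 10 largest rises among well expressed genes not set apart began with H19, an imprinted noncoding RNA, which had 149 and 155 CPM in deficient cultures, against 0.355 and 0.44 CPM in sufficient ones (log2 change 8.62 ± 0.17, adjusted p = 3.9e-10). Behind Gldc came Vat1l (186 and 195 CPM in deficient cultures, against 1.15 and 0.991 CPM in sufficient ones), the chaperone gene Clgn (176 and 174 CPM in deficient cultures, against 2.08 and 1.98 CPM in sufficient ones) and Crhbp, which binds corticotropin-releasing hormone (192 and 177 CPM in deficient cultures, against 2.68 and 2.31 CPM in sufficient ones). Lta (6.13 ± 0.41), the tubulin gene Tubb3 (5.72 ± 0.15), Syndig1l (5.10 ± 0.18), Pgf, a growth factor of the VEGF family (4.78 ± 0.31), and the adhesion gene Mpzl2 (4.64 ± 0.23) completed them. All 10 also rose without CXCL12.

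The 10 largest falls were Hspg2, Lpl, Anxa2, Lrp1, Fosb, Hmox1, App, Nrp2, Loxl3 and Ctsl. Hspg2, the basement membrane proteoglycan perlecan, had 0.181 and 0.201 CPM in deficient cultures, against 337 and 330.1 CPM in sufficient ones, and Lpl, lipoprotein lipase, 0.361 and 0.201 CPM in deficient cultures, against 482 and 486 CPM in sufficient ones. Lrp1, a scavenger receptor, had 1.17 and 1.4 CPM in deficient cultures, against 606 and 599.7 CPM in sufficient ones, Hmox1, heme oxygenase, 1.81 and 1.65 CPM in deficient cultures, against 355 and 345 CPM in sufficient ones, and the lysosomal protease Ctsl 3.66 and 2.56 CPM in deficient cultures, against 242 and 236 CPM in sufficient ones. Anxa2 had 0.271 and 0.502 CPM in deficient cultures, against 357 and 345 CPM in sufficient ones, and App 0.903 and 0.903 CPM in deficient cultures, against 140.0 and 139 CPM in sufficient ones. Nrp2 and Loxl3 changed by -6.60 ± 0.49 and -6.43 ± 0.24. Other than Fosb, each of these followed the stromal or the myeloid markers at an r of 0.58 to 0.83 over the other libraries, below the 0.9 for setting apart. Their part in these falls was not tested.

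A further 10 falls, chosen after the values were seen, had an r under 0.5 with both marker sums: Fosb, Lima1, Fos, Col5a3, Polm, Dusp6, Egr1, Cacna1e, Islr2 and Arid5b. Lima1, an actin-binding protein, had 1.22 and 1.3 CPM in deficient cultures, against 96.4 and 93.1 CPM in sufficient ones (log2 change -6.23 ± 0.41, adjusted p = 7.4e-08). Col5a3, a collagen chain, had 4.02 and 3.71 CPM in deficient cultures, against 164 and 161 CPM in sufficient ones (log2 change -5.39 ± 0.24, adjusted p = 3.9e-09), and the calcium channel subunit Cacna1e 7.27 and 9.68 CPM in deficient cultures, against 139.6 and 135 CPM in sufficient ones (log2 change -4.02 ± 0.33, adjusted p = 5.2e-07). Islr2 and Arid5b changed by -3.84 ± 0.27 and -3.66 ± 0.50.

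**Figure D5:**
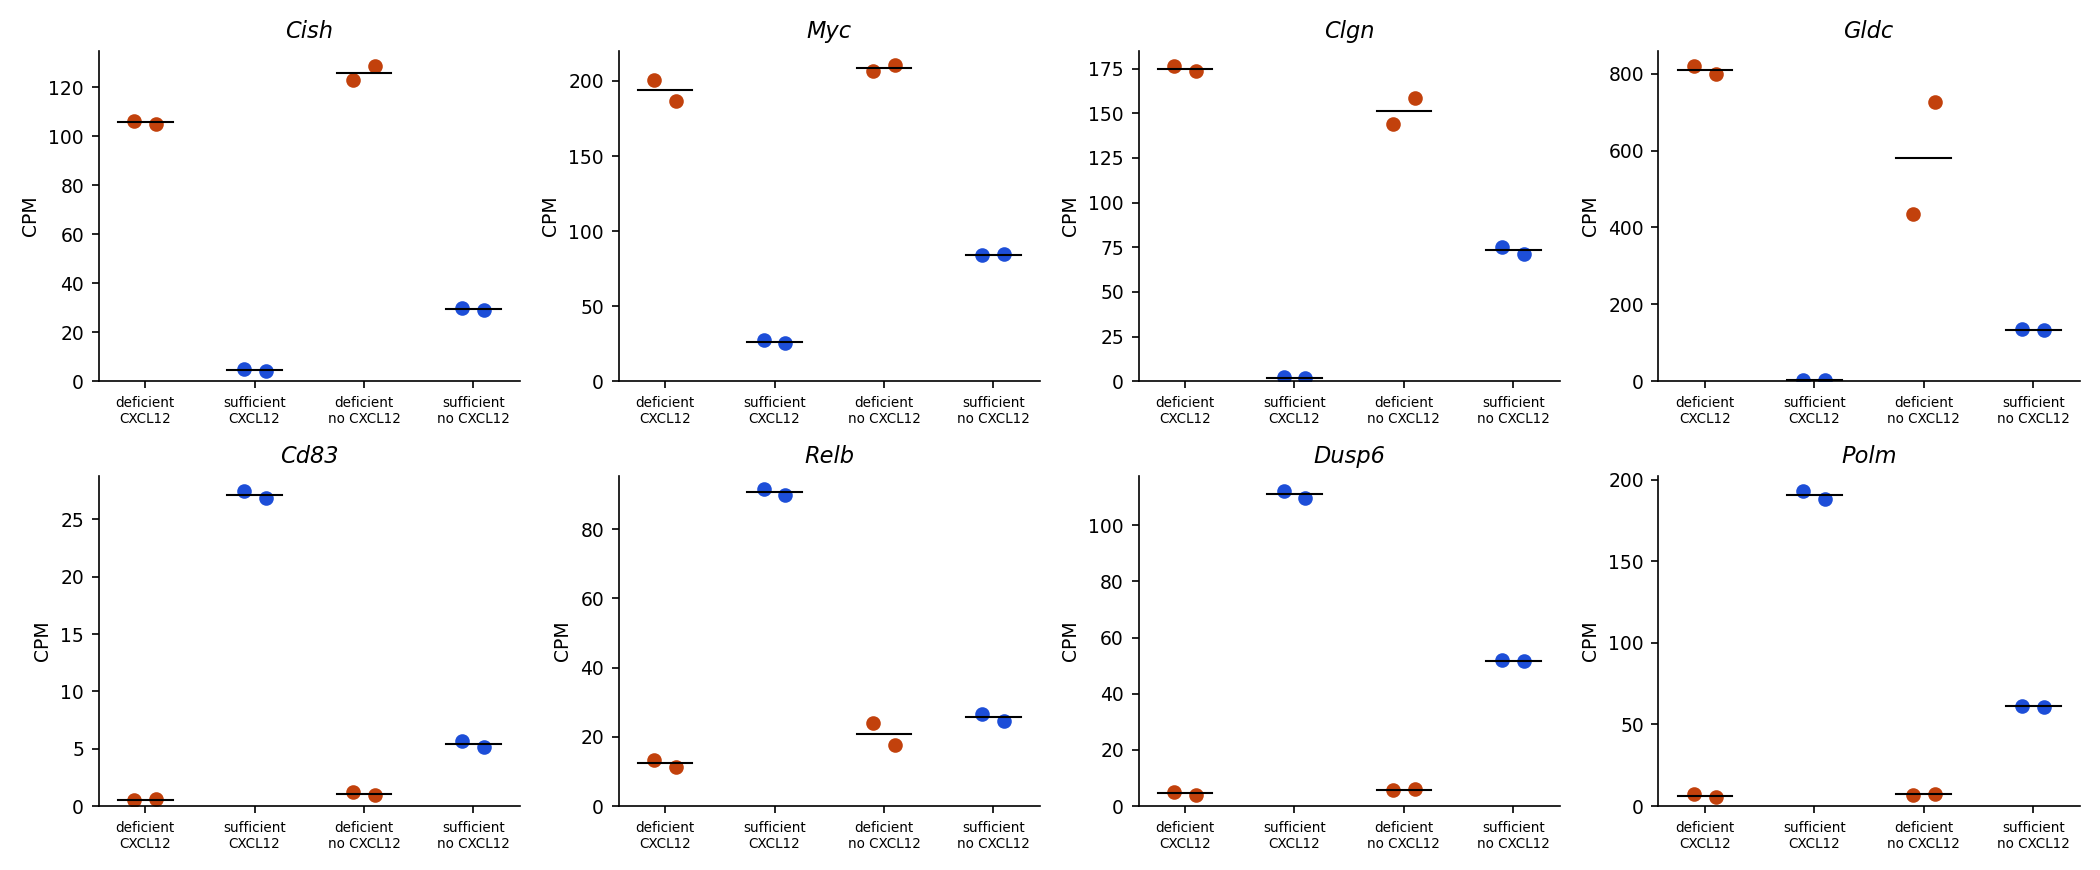
CPM of 8 genes in each library of the 4 cultures without IL-7; points are the 2 replicates, lines their mean, and each axis starts at 0. Cish, Myc, Clgn and Gldc are lowest and Cd83, Relb, Dusp6 and Polm highest in the sufficient cultures with CXCL12.

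The genotype comparisons with and without CXCL12, which share no library, overlapped widely. Of the 4057 genes that rose with CXCL12, 2859 (70.5%) also rose without it, which is 62.1% of the 4601 that rose there. Of the 5309 that fell with CXCL12, 3845 (72.4%) also fell without it, 74.8% of 5142. Opposite calls were made for 158 genes that rose with CXCL12 and 140 that fell with it. Both comparisons cross the same sets of cultures.

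The largest called differences between the genotype changes were followed through the levels of all 4 cultures. On the positive side stood Gldc, Crhbp, Clgn, Vat1l, Tenm4 and Syndig1l, all lowest in sufficient cultures with CXCL12. Clgn had 144 and 159 CPM in deficient cultures, against 75.1 and 71.4 CPM in sufficient ones without CXCL12, and the difference of its changes was 5.37 ± 0.15. Tenm4 had 68 and 92.3 CPM in deficient cultures, against 7.34 and 6.93 CPM in sufficient ones with CXCL12. Without CXCL12 it had 8.5 and 48.3 CPM in deficient cultures, against 55.4 and 55.1 CPM in sufficient ones, where the deficient replicates lay far apart.

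On the negative side stood Scand1, H2-K2, Jund, Relb, Dtx1 and Rgs10. Dtx1, a regulator of Notch signalling, had 9.62 and 7.72 CPM in deficient cultures, against 101 and 95.1 CPM in sufficient ones, and without CXCL12 13.1 and 13.1 CPM in deficient cultures, against 24.3 and 25 CPM in sufficient ones. Jund, an AP-1 subunit, had 146 and 92.6 CPM in deficient cultures, against 415 and 427 CPM in sufficient ones, and 386 and 212 CPM in deficient cultures, against 113 and 119.9 CPM in sufficient ones without CXCL12. H2-K2 had 6.59 and 3.86 CPM in deficient cultures, against 46.2 and 45.6 CPM in sufficient ones, and 18.4 and 8.5 CPM in deficient cultures, against 11.7 and 11.8 CPM in sufficient ones without CXCL12. Rgs10 did not separate the genotypes with CXCL12, at 10.3 and 8.78 CPM in deficient cultures, against 8.85 and 9.19 CPM in sufficient ones. Its difference came from the cultures without CXCL12, at 35.2 and 13.6 CPM in deficient cultures, against 3.6 and 4.22 CPM in sufficient ones, with the deficient replicates far apart. Scand1 showed the same spread there, at 41.4 and 11.2 CPM in deficient cultures, against 6.58 and 7.4 CPM in sufficient ones, and the call of its difference ended without deficient replicate 1 (adjusted p = 0.098).

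Markers of other cells were measured beside these results, and their part in them was not tested. Of 16 T cell markers 4 rose and 6 fell, and Cd3d, Cd3e and Cd3g were at 0 in both deficient libraries. Their sum was 238 and 227 CPM in deficient cultures, against 61.6 and 61.9 CPM in sufficient ones, most of it in deficient cultures from Lck, Thy1 and Lat. Thy1, itself set apart as stromal, had 85.4 and 85 CPM in deficient cultures, against 5.08 and 5.89 CPM in sufficient ones. Of 9 erythroid markers 2 rose and none fell. They summed to 1212 and 1261 CPM in deficient cultures, against 491 and 508 CPM in sufficient ones, with the globin genes Hbb-b1, Hbb-b2, Hba-a1 and Hba-a2 at 0 in deficient cultures. Markers without a read were not particular to deficient cultures. Of 13 erythroid markers, 5 and 5 had none in the deficient libraries, and 6 and 4 in the sufficient ones. Of 9 megakaryocyte markers 6 fell and none rose, of 10 NK cell markers 3 fell and 0 rose, and of 12 markers of plasmacytoid dendritic cells 7 fell and 1 rose.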

How the data were processed

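RNA of flow-sorted B cells was made into stranded, oligo-dT selected libraries, per the labels' protocols. The authors deposited 1 table of raw read counts per gene for 23762 genes in 18 libraries of 9 groups. The submitters' processing notes name STAR, BWA, Picard, featureCounts, bedtools and MACS2 and the build mm9. Counting options, strand included, are not given in the sources used here, so overlapping, antisense and near-identical genes are uncertain. Accessibility data were not used here, and some genes are not reported here.

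From the counts, edgeR 4.0.16 in R 4.3.3 (filterByExpr, TMM, robust quasi-likelihood test) was fitted to all 18 libraries with 1 mean per group, leaving 14862 genes, with Benjamini-Hochberg adjustment at 0.05. The SE is the change divided by the root of F. The following contrasts were tested: genotype with CXCL12, genotype without it, and their difference. Depth was 17257914 to 44172189 counts in the 8 libraries used. In data simulated for the comparison with CXCL12 (3 draws, at least 14752 genes), 201, 201 and 198 genes in all were changed 1.5-, 2- and 4-fold. Of these 14.4%, 44.8% and 78.8% were recovered, and 13 of 288 calls were false. The simulated share of changed genes was far below the 63.0% called with CXCL12, so these rates need not hold for the real comparison.

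Members and lists were chosen with earlier results of these data known. The genes named were 25 regulators, the 10 largest rises and falls with a mean log2 CPM not under 3, up to 6 per set apart, 6 differences per direction, and up to 3 members of smallest p in 19 of 27 lists (the rule allowed 6). Members that went against their list, the falls at an r under 0.5, Nov, Thy1, Csf2rb, Nfkb2, Nfkbia and Ighm were chosen after their values were seen. Alternatives covered scaling, filters, DESeq2 1.42.0, the libraries fitted, a replicate block, single libraries left out and genes set apart. Sequences are from RefSeq, GRCm38.p6.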

Additional observations from a re-analysis of the deposited data

Results flagged for a closer look

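The genotype change, deficient over sufficient, differed with and without CXCL12 for 3750 genes by the difference itself, tested as an interaction term in edgeR's quasi-likelihood fit with Benjamini-Hochberg adjustment. Of 127 genes followed in this way 83 were among them, 40 with a positive and 43 with a negative difference. Over all genes tested the share was 25.2%. Many of the 127 were chosen for large differences, large changes or small p in these data, so the 2 shares are not comparable. The values in parentheses are log2 differences, the genotype change with CXCL12 minus that without it. Positive differences were found for the cell cycle genes Mki67 (2.05), Exo1 (1.93), Ncapg (1.84), Ccne2 (1.83), Mcm6 (1.81), Aurkb (1.53), Pbk (1.36), Ccnd2 (1.40), Cdk2 (1.20), Cdkn2c (0.95) and Ccnd3 (0.93). They were found for the cytokine, MYC and surrogate light chain genes Tnfsf11 (2.44), Cish (2.43), Vpreb2 (1.91), Myc (1.56), Tnf (1.51) and Lta (1.47). They were found for the metabolic and secretory genes Gldc (6.21), Shmt1 (1.47), Mthfd1 (1.32), Abcg1 (1.26), Shmt2 (1.20), Canx (0.53) and Hspd1 (0.33). Among the genes of largest rise or difference they were found for Crhbp (5.48), Clgn (5.37), Vat1l (4.69), Tenm4 (4.45), Syndig1l (3.91), Mpzl2 (2.69), Tubb3 (2.68), Pgf (1.33) and H19 (1.10). Positive too were Gbp7 (3.43), Thy1 (2.92), Nov (2.81), Cxcr5 (1.71), Hmgb1 (0.78), Xrcc5 (0.77) and Gbp2 (0.66).

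Negative differences were found for the NF-kB, ERK and AP-1 genes Cd83 (-3.23), Jund (-3.18), Relb (-2.59), Ier3 (-1.92), Nfkbie (-1.61), Dusp6 (-1.47) and Birc3 (-1.16). Genes of B cell factors and recombination with a negative difference were Polm (-1.83), Bcl6 (-1.61), Pax5 (-0.99), Brwd1 (-0.89), Spib (-0.81), Irf4 (-0.75), Gfi1 (-0.72), Klf6 (-0.61), Rag2 (-0.57) and Irf8 (-0.45). Receptor, signalling and quiescence genes with one were Rgs1 (-4.16), Dtx1 (-2.58), Rgs10 (-2.56), Rgs2 (-1.85), Itgb3 (-1.69), Cd72 (-1.54), Il2ra (-1.50), Btg1 (-1.36), Trib2 (-1.26), S1pr1 (-1.21), Itga5 (-0.94) and Lyn (-0.47). Genes of presentation and maturation with one were H2-K2 (-3.33), Ctss (-1.37), H2-Aa (-1.17), Fcrl1 (-1.13), Ighd (-1.07), H2-Ob (-0.73) and Ighm (-0.59). The remaining negative ones were Scand1 (-3.81), Hmox1 (-1.88), Ctsl (-1.60), Islr2 (-1.60), Col5a3 (-1.39), Herpud1 (-1.0) and Gbp4 (-0.40). The value of Rgs1 depends on the prior count, since deficient cultures held 2 and 1 of its reads with CXCL12. Among the regulators and the genes of largest difference, whose differences were recomputed under each alternative, the call ended in 13 settings for Pax5, 9 for Irf8, 6 for Scand1, 2 for Rag2 and 1 each for Irf4, Ccnd3 and Rgs10. For Irf8 the adjusted p was 0.16 with 8 libraries and 0.14 with the close sufficient pairs summed, and for Rag2 0.082 and 0.056. The difference of Pax5 was -0.26 (adjusted p = 0.082) without deficient replicate 1. The first deficient library without CXCL12 stood apart from the second, and the number of called differences was 4747 without the first and 8377 without the second. The groups of 2 libraries were too small to look for single outlying samples.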

How the results depend on the processing

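With CXCL12, the number of genes called by genotype was 7712 to 10847 over all alternatives that changed the fit, and no gene was called in opposite directions by an alternative and by the fit reported. It was 5689 with a change of at least 2-fold, and 7848 to 8228 with single libraries left out. Upper quartile scaling moved the median of all genes by -0.11 (log2). Without CXCL12 the count fell to 2556 with the compared libraries alone and to 5423 at 2-fold, and was 8179 to 11038 with single libraries left out. The difference of the genotype changes depended most on the setting. Against 3750 genes, 1083 were called with the close pairs of sufficient libraries summed to 1 library each (chosen after seeing the data), 1299 with 8 libraries, 1955 at 2-fold, and 1990 to 8377 with single libraries left out. The count was 1990 without deficient CXCL12 replicate 2 and 8377 without deficient replicate 2, and it was 2131 to 2251 without any 1 of the 4 sufficient libraries. With the pairs summed, the difference was positive for 37 S phase and 65 G2 and M phase genes and negative for 14 NF-kB genes. Pax5 without CXCL12 turned to -0.61 (adjusted p = 2.1e-05, edgeR) without deficient replicate 1, and the Rag1 difference was 0.49 (adjusted p = 0.012) without deficient replicate 2 and -0.51 (adjusted p = 0.013) without deficient replicate 1. The cause was not tested. The correlation of same-numbered libraries' deviations was -0.016 between genotypes with CXCL12 and 0.032 without it, and between cultures with and without CXCL12 it was 0.166 for deficient and 0.0955 for sufficient ones. The numbers were therefore not taken to pair the libraries. With the replicate block 9133, 10145 and 4235 genes were called in the 3 comparisons, and with DESeq2 9584, 10068 and 4857 (1153 genes had no adjusted p in the last). Of the values of named genes with CXCL12 under alternatives, 2232 kept direction and side of the threshold, 9 lost the call and 5 gained it. Apart from the 25 regulators, most of these genes were chosen for a small p or a large change in these data. Few calls could thus be lost, and the tally says little about other genes. Depth limited genes near 0 in deficient cultures, such as Ccnd1, Rgs1 and Col1a1.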
